A study of Mus musculus with 6 samples.

Results

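The nuclear receptor superfamily of the mouse ventricle was examined at 2 postnatal ages, P1 and P14, through 33 receptor genes named by symbol: the thyroid hormone, retinoic acid, vitamin D, glucocorticoid and mineralocorticoid receptors, the PPARs, REV-ERBs, RORs, LXRs and RXRs, and the orphan groups. Of these 33 genes, 31 were found by symbol among the 14495 genes of the table, and all 31 passed the filter on low counts; Esr1 and Nr5a2 were not analysed here. The RNA came from untreated male C57BL/6 mice. Atria were removed and the septum was left in place, while the tissue label names the left ventricle, so both descriptions are given. Each age had 3 libraries, and each library was made from a pool of 3 hearts, 9 hearts per age. The libraries were poly(A)-selected and read for 36 cycles on a Genome Analyzer IIx. Spread between libraries is therefore spread between pools, and in whole ventricle fewer cells of a type cannot be told apart from less RNA per cell.

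Nuclear receptors are transcription factors with a zinc finger DNA-binding domain and, in most of them, a ligand-binding domain that exchanges corepressors for coactivators when a hormone, vitamin derivative or lipid binds. Thyroid hormone, retinoic acid and vitamin D receptors, PPARs and LXRs bind DNA as heterodimers with an RXR, steroid receptors bind as homodimers, and REV-ERBs, RORs and ERRs can bind as monomers. In heart muscle, thyroid hormone receptors control the switch between myosin heavy chains, and PPARs and ERRs control genes of fatty acid oxidation and mitochondria.

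Rxrg and Thrb had the largest fold increases among the receptor genes, so the stretches before their RefSeq start sites are shown first (GRCm38.p6, 100 bases immediately before the start, written 5′ to 3′ in the direction of the gene, with each CG dinucleotide in capitals). Fewer CG dinucleotides lie before either start site of Rxrg (3 and 2) than before the starts shown for Rxra (19) and Rxrb (16). Rxra and Rxrb each have another start that is not shown, with 0 and 11 CG dinucleotides. The contrast therefore does not hold for the other Rxra start. The starts of Thrb differ from each other.
Rxra, chr2:27677101-27677200, plus strand: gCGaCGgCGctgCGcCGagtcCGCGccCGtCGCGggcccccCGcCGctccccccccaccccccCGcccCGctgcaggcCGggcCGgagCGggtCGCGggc
Rxrb, chr17:34032250-34032349, plus strand: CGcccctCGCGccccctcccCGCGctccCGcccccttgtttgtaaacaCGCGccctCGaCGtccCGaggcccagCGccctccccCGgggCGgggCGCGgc
Rxrg, first start, chr1:167598262-167598361, plus strand: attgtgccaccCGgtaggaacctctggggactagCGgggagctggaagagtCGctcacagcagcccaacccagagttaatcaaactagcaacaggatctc
Rxrg, second start, chr1:167618165-167618264, plus strand: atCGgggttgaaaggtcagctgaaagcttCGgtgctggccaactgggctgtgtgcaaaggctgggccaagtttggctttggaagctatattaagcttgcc
Thrb, first start, chr14:17660860-17660959, plus strand: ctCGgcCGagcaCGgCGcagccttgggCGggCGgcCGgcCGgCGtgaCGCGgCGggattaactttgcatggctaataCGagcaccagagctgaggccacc
Thrb, second start, chr14:17981544-17981643, plus strand: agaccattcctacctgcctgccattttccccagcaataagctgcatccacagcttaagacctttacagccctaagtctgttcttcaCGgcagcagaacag

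In the 250 bases before each start, RefSeq gave 40 and 1 CG dinucleotides for the pair of Rxra start sites, 31 and 39 for Rxrb, 6 and 7 for Rxrg, and 30 and 2 for Thrb. Windows were held for 29 of the 31 receptor genes (46 windows), and their median was 13 CG dinucleotides against 6 over all 32851 windows, so the Rxrg windows were near the value of the typical window and below that of the receptor genes. Which of these start sites the ventricle used was not measured.

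Letters of known binding motifs were searched for on both strands of the same 250-base windows. The hexamer AGGTCA, the core that most of these receptors recognise, occurred in 8 of the 46 receptor windows, belonging to 7 genes including Rxrg, Thrb, Rarg and Pparg, and in 14.0% of all windows. The GC box GGGCGG occurred in 24 receptor windows and 32.7% of all windows. The E-box CACGTG occurred in 2 receptor windows (6.02% of all), and the cAMP response element TGACGTCA in 0 (1.55% of all). These matches are letters in a window and not measured binding sites; the GC box can overlap CG dinucleotides counted above.

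A repeat of GTTCA with any 6 bases between its copies, a form of the direct repeat that retinoic acid receptors are known to bind, was in 22 of 32851 windows (0.067%). Among receptor windows it was found in Rarb alone. Other forms of the direct repeat were not searched for, so its absence from the other receptor genes holds for these letters only. The MEF2 consensus, bound by a muscle transcription factor family, was in 0.508% of all windows and among receptor windows in Esrrg alone. Both are shown with the motif in capitals, beginning 52 bases before the start in Rarb and 22 bases before the first of 4 RefSeq starts in Esrrg. The windows of the other Esrrg starts did not hold the MEF2 motif.
Rarb, chr14:16575477-16575576, minus strand: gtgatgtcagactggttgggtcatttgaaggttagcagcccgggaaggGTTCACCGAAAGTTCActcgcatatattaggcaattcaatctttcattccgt
Esrrg, chr1:187608906-187609005, plus strand: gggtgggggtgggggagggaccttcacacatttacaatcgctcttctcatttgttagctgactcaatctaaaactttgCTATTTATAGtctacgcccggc

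Library totals ranged from 5916557 counts (P1 replicate 3) to 17353933 (P1 replicate 1), and between 14419 and 14486 genes had a count in each library. One library stood apart. In P1 replicate 2, the deviation of a gene from its P1 mean fell with the GC content of its transcript (correlation across genes -0.641), against 0.5 and 0.34 in the other P1 libraries and between -0.112 and 0.16 at P14. Among the receptor genes, P1 replicate 2 gave the minimum at P1 for 12 genes with a median GC content of 57.9% and the maximum for 11 genes with a median of 45.3%. Calls that changed without this library, and called values that moved by over 1.5 times, are given below without it.

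**Figure D1:**
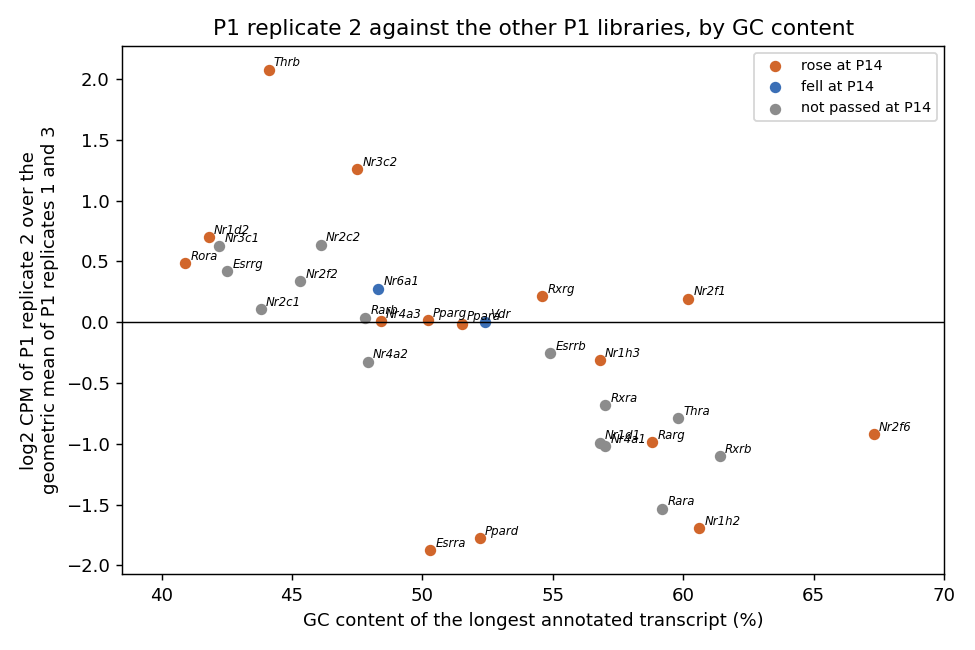
Level of each receptor gene in P1 replicate 2 relative to P1 replicates 1 and 3 (vertical axis, log2 of CPM, counts scaled to library size, over their geometric mean) against the GC content of its longest annotated transcript (horizontal axis, percent); each point is a gene. Most GC-rich receptors, such as Thra (GC content 59.8%, log2 value -0.79), lay below 0 and most AT-rich ones, such as Thrb (44.1%, 2.07), above it; Nr2f1 was GC-rich and above 0.

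At P14, 15 of the 31 receptor genes (48.4%) had risen and 2 (6.45%) had fallen relative to P1, while 14 did not pass the test (edgeR quasi-likelihood test, Benjamini-Hochberg adjusted p below 0.05 over 14301 genes). Over all genes tested, 21.8% rose and 22.0% fell. The median log2 fold change (P14 over P1) was 0.95 over the receptor genes and -0.01 over all genes. A change of at least 2-fold was seen for 13 risen receptor genes (14.2% of all genes) and 2 fallen ones (13.5% of all genes). For 21 receptor genes (67.7%) the 3 values at one age did not overlap the 3 at the other, against 54.8% of all genes.

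The 15 genes that rose were Thrb, Rarg, Ppara, Ppard, Pparg, Nr1d2, Rora, Nr1h2, Nr1h3, Rxrg, Nr2f1, Nr2f6, Esrra, Nr3c2 and Nr4a3, and the 2 that fell were Vdr and Nr6a1. Without P1 replicate 2, all 15 and both were still called, joined by Rarb and Nr3c1 upward and by Thra, Rara and Rxra downward (17 risen and 5 fallen; 23.9% and 23.3% of all genes). The balance of directions depended on scaling: with library totals alone the median of all genes was -0.47, and 11 receptor genes were called higher and 8 lower (11.3% and 39.1% of all genes). The median of the receptor genes under those totals was 0.46. With the replicate number as a block, 16 receptor genes rose and 2 fell (24.9% and 24.0% of all genes), and with each library corrected for GC content and length 15 rose and 5 fell (26.2% and 25.6%). By subfamily, all 3 PPAR genes and both LXR genes rose, 2 of 3 COUP-TF genes rose, and no gene of the NR2C pair passed the test.

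**Figure D2:**
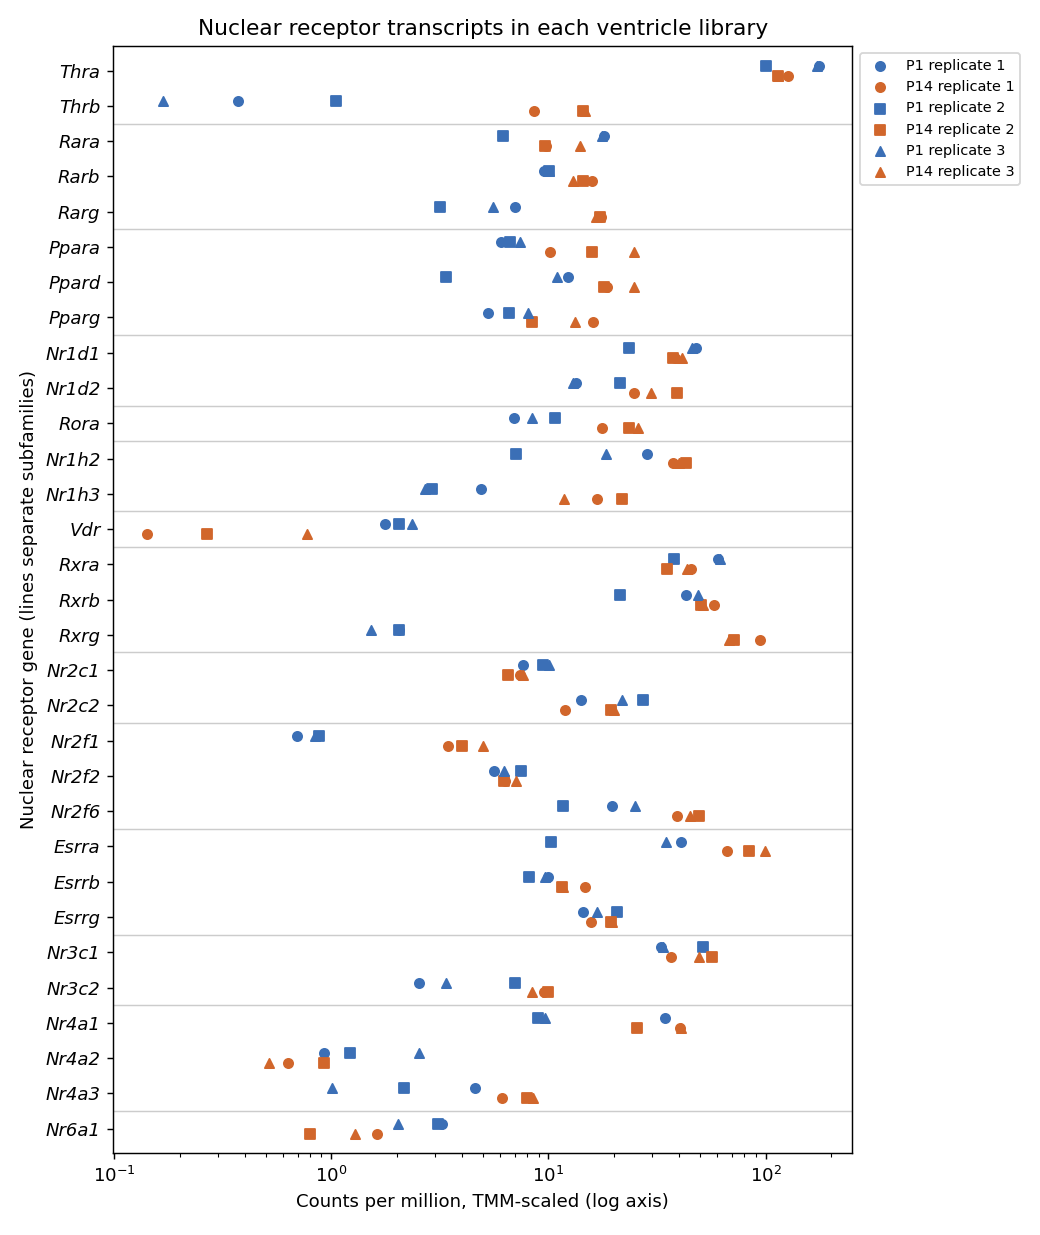
CPM, TMM-scaled (horizontal, log axis), of each of the 31 receptor genes (rows, grouped by subfamily) in the 3 P1 and 3 P14 libraries, a point for each library. Rxrg and Thrb show the widest gap between ages, Vdr lies lower at P14, and Thra lies highest at both ages.

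The thyroid hormone receptors are encoded by Thra (chr11:98740638-98769006, plus strand) and Thrb (chr14:17660261-18038090, plus strand). Thrb was at 0.37, 1.05 and 0.168 CPM (counts scaled to library size by TMM) in P1 replicates 1 to 3, which are 8, 18 and 1 counts, and at 8.59, 14.5 and 14.7 CPM in the P14 replicates, which are 122, 109 and 114 counts. Every P14 library was above every P1 library. The increase was 20.7-fold (log2 fold change 4.37 ± 0.44 SE, adjusted p = 4.58e-06), and the log2 fold change was 5.23 without P1 replicate 2, which held most of the P1 counts. Thra was at 176, 101 and 173 CPM at P1 and 127, 114 and 114 CPM at P14, so the ages overlapped through P1 replicate 2. Its difference did not pass the test (log2 fold change -0.35 ± 0.22, adjusted p = 0.227), but it passed as a decrease without P1 replicate 2 (-0.57, adjusted p = 0.00809) and after correction of each library for GC content and length (-0.87, adjusted p = 0.000106).

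Per kilobase of longest transcript, Thra had the highest level of all 31 receptor genes at both ages, 61.3 CPM per kb at P1 and 48.2 at P14, and no P1 or P14 library of the next gene in order overlapped it. Thrb had the lowest level at P1 (0.0854 CPM per kb, rank 31) and rank 23 at P14 (2.03 CPM per kb). The Thrb share of the thyroid hormone receptor signal per kilobase was 0.083%, 0.408% and 0.0384% in P1 replicates 1 to 3 (0.176% ± 0.202, SD, with P1 replicate 2 the highest) and 4.09% ± 1.28 at P14 (SD, n = 3). Counts were per gene, so the hormone-binding and non-binding Thra isoforms were not separated. The ends of Thra and of Nr1d1 on the opposite strand overlap by 263 exon bases (5.7% and 8.55% of their exon bases), and no label states whether reads were counted by strand.

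The 3 RXR genes encode the shared partner of many other receptors: Rxra (chr2:27676440-27762957), Rxrb (chr17:34031812-34038399) and Rxrg (chr1:167598384-167639623), all on the plus strand. Rxrg had the largest fold change of any receptor gene. It was at 2.04, 2.04 and 1.52 CPM in the P1 libraries and at 94.4, 71.4 and 67.9 CPM in the P14 libraries, a 40.3-fold increase (log2 fold change 5.33 ± 0.26, adjusted p = 8.28e-09). Between those 2 sets of values there was no overlap. Rxra, at 60.3, 38.0 and 61.8 CPM at P1 and 45.4, 35.2 and 43.5 CPM at P14, overlapped between ages (log2 fold change -0.36 ± 0.22, adjusted p = 0.202). It passed as a decrease without P1 replicate 2 (-0.56, adjusted p = 0.0134) and with the GC and length correction (-0.76, adjusted p = 0.000827). Rxrb was at 43.2, 21.4 and 48.8 CPM at P1 and 58.1, 50.3 and 51.4 CPM at P14, without overlap. Its log2 difference of 0.50 ± 0.26 did not pass (adjusted p = 0.137) and was 0.22 without P1 replicate 2; with the replicate number as a block it did (0.58, adjusted p = 0.0234), and with the GC and length correction the value was -0.07.

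Per kilobase, Rxrg moved from rank 23 among the receptor genes (0.883 CPM per kb) to rank 2 (36.9 CPM per kb), below Thra with no overlap and beside Esrra (33.5 CPM per kb), with which it overlapped. Its share of the 3 RXR transcripts per kilobase was 3.75% ± 1.79 at P1 and 56.0% ± 2.86 at P14 (SD, n = 3). Over the same interval the Rxra share went from 42.3% ± 3.32 to 12.9% ± 1.51 and the Rxrb share from 54.0% ± 5.12 to 31.1% ± 1.74. Without division by length the Rxrg share was 2.2% and 45.0%, the Rxra share 58.0% and 24.0%, and the Rxrb share 39.8% and 31.0%. The order of Rxra and Rxrb at P1 therefore depended on the length used.

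**Figure D3:**
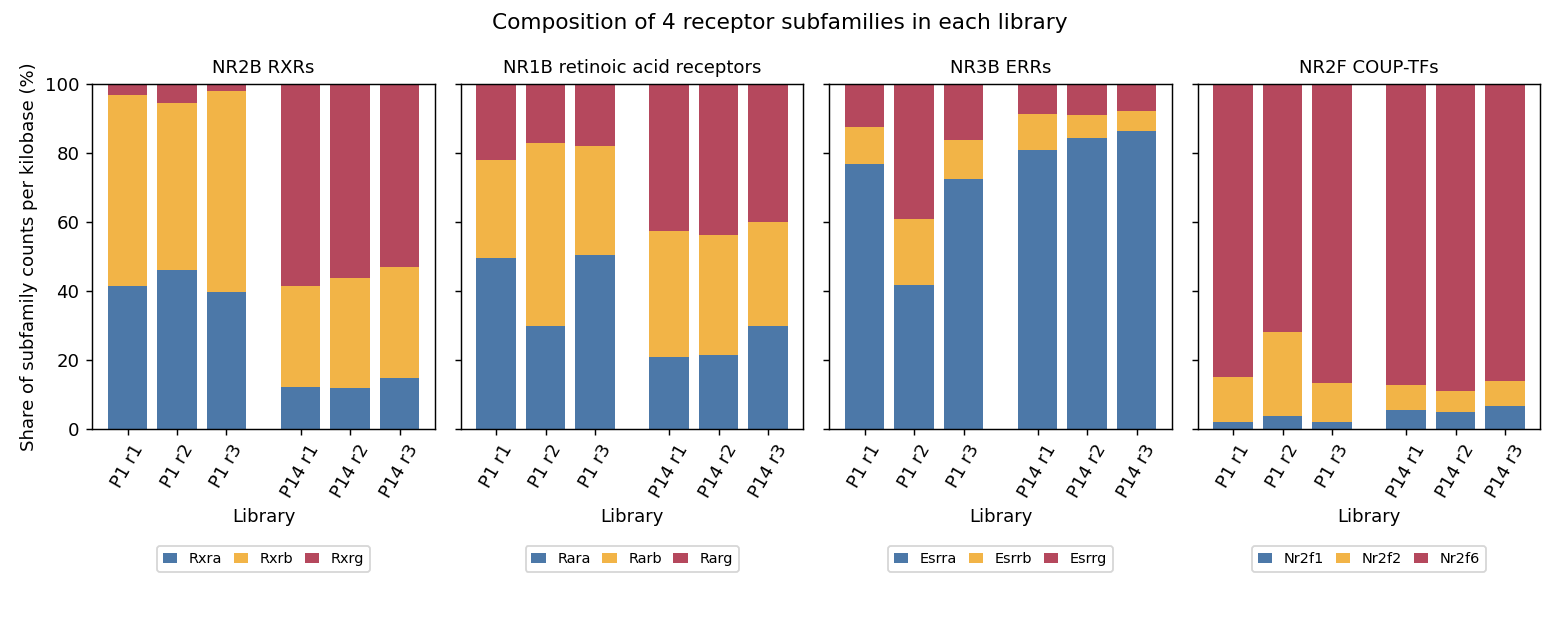
Share of each gene in the counts per kilobase of its subfamily (vertical axis, percent) for the RXRs, retinoic acid receptors, ERRs and COUP-TFs, with a stacked bar for each of the 6 libraries. Rxrg takes the larger part of the RXR bar in every P14 library (mean 56.0%) and a small part at P1 (mean 3.75%), and the retinoic acid receptor, ERR and COUP-TF bars of P1 replicate 2 differ from those of the other P1 libraries.

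Ratios of paired receptor genes within a library do not depend on library scaling, and 17 pairs were compared by exact two-sided permutation tests, whose smallest possible p with 3 against 3 libraries is 0.1 (0.189 after Benjamini-Hochberg adjustment over the 17). No pair could therefore pass 0.05. The log2 count ratio of Rxrg to Rxra was -4.89, -4.22 and -5.35 at P1 and 1.06, 1.02 and 0.64 at P14, a 52.9-fold shift (difference 5.73 ± 0.35 SE, exact permutation p = 0.1). The ratio of Thrb to Thra shifted 37.5-fold (difference 5.23 ± 1.05, exact permutation p = 0.1), and the difference was 6.18 without P1 replicate 2 and 4.47 without P1 replicate 3. Rxrb to Rxra shifted by 0.92 ± 0.17 on the log2 scale, also without overlap (exact permutation p = 0.1). None of these 3 pairs overlapped between ages, so leaving out a library could not change the sign of the difference.

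Retinoic acid receptors are encoded by Rara, Rarb and Rarg, of which Rarg (chr15:102234938-102257517, minus strand) rose. Rarg was at 7.03, 3.15 and 5.56 CPM at P1 and at 17.5, 17.3 and 16.5 CPM at P14. All P14 libraries were above all P1 libraries, a 3.25-fold increase (log2 fold change 1.70 ± 0.29, adjusted p = 0.000314). Rara was at 18.1, 6.18 and 17.7 CPM at P1 and 9.78, 9.69 and 14.0 CPM at P14, overlapping (log2 fold change -0.32 ± 0.36, adjusted p = 0.504). Without P1 replicate 2, its lowest library, Rara passed as a decrease (-0.69, adjusted p = 0.0177), as it did with the GC and length correction (-0.74, adjusted p = 0.0184). Rarb, whose start-site sequence with the GTTCA repeat is shown above, was at 9.58, 10.1 and 10.1 CPM at P1 and 15.8, 14.5 and 13.0 CPM at P14. Its ages did not overlap, but the test gave 0.54 ± 0.22 with adjusted p = 0.0609; without P1 replicate 2 the adjusted p was 0.0448 (0.56) and with the GC and length correction 0.00186 (0.78). In the annotation 38.37% of Rarb exon bases overlap Top2b or Gm48162 on the other strand.

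Within the retinoic acid receptors, the Rarg share per kilobase was 19.2% ± 2.5 at P1 and 42.1% ± 1.85 at P14, and the Rara share 43.2% ± 11.7 and 24.0% ± 5.02 (SD, n = 3). P1 replicate 2 had a Rara share of 29.7%, against 49.5% and 50.4% in the other P1 libraries. The log2 ratio of Rarg to Rara was -1.37, -0.97 and -1.67 at P1 and 0.84, 0.83 and 0.23 at P14, so Rarg counts exceeded Rara counts in all 3 P14 libraries and in 0 of 3 P1 libraries (difference 1.97 ± 0.28, exact permutation p = 0.1).

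All 3 PPAR genes, which encode receptors for fatty acids and their derivatives, rose. Ppara (chr15:85734983-85802819, plus strand) was at 6.06, 6.65 and 7.41 CPM at P1 and 10.2, 15.9 and 24.9 CPM at P14. The P14 values were all higher but spread widely (17.0 ± 7.38, SD, against 6.71 ± 0.676), with a 2.54-fold increase (log2 fold change 1.34 ± 0.30, adjusted p = 0.00273). Ppard (chr17:28232700-28301474, plus strand) was at 12.3, 3.38 and 10.9 CPM at P1 and 18.6, 18.1 and 24.7 CPM at P14, without overlap. Its increase of 2.33-fold (log2 fold change 1.22, adjusted p = 0.0276) was 0.80 without P1 replicate 2 (adjusted p = 0.00677). It did not pass when any one P14 library was left out: adjusted p = 0.0644 without replicate 1, 0.0562 without replicate 2 and 0.0922 without replicate 3.

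Pparg (chr6:115360951-115490399, plus strand), known as the adipocyte PPAR, was at 5.27, 6.59 and 8.08 CPM at P1 and 16.0, 8.36 and 13.3 CPM at P14. The lowest P14 library was close to the highest P1 library, and the 1.94-fold increase (log2 fold change 0.95 ± 0.29, adjusted p = 0.0149) did not pass without P14 replicate 1 (adjusted p = 0.0809) or with library totals alone (0.171). Of 9 fat cell markers listed, only 2 were found in the table, Fabp4 and Cidea, both of which are also expressed outside fat. Adipoq, Plin1, Cidec, Ucp1, Lep, Retn and Adig were not in it. Fabp4 and Cidea summed to 670–838 CPM at P1 and 1250–1650 CPM at P14. The part of fat cells in the Pparg result was not tested. Per kilobase, Ppara held 26.8% ± 5.09 of the PPAR transcripts at P1, Ppard 30.6% ± 14.4 and Pparg 42.5% ± 9.62, and at P14 Ppara held 30.0% ± 9.36, Ppard 33.7% ± 2.07 and Pparg 36.3% ± 10.7 (SD, n = 3). The mixture varied between libraries of one age, with Ppard at 15.2% and Pparg at 52.1% in P1 replicate 2. Without division by length the mean shares at P1 were Ppara 31.2%, Ppard 37.9% and Pparg 30.8%. At P14 they were 33.3%, 41.1% and 25.5%, so the order of the PPAR genes depended on the length used. Neither Ppara nor Pparg shifted against Ppard beyond the spread of libraries (exact permutation p = 0.9 and 0.7).

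The LXRs, oxysterol receptors that control cholesterol export and lipid synthesis, are encoded by Nr1h3 (LXRα, chr2:91184061-91202834, minus strand) and Nr1h2 (LXRβ, chr7:44549616-44553951, minus strand). Nr1h3 was at 4.9, 2.92 and 2.69 CPM at P1 and 16.7, 21.8 and 11.8 CPM at P14. With no overlap, it was 4.63-fold higher at P14 (log2 fold change 2.21 ± 0.31, adjusted p = 6.44e-05) and moved from rank 21 to rank 9 in level per kilobase. Nr1h2 was at 28.3, 7.05 and 18.4 CPM at P1 and 37.4, 42.8 and 39.9 CPM at P14, 2.23-fold higher (log2 fold change 1.16 ± 0.40, adjusted p = 0.0406). Without P1 replicate 2 the Nr1h2 log2 fold change was 0.75 (adjusted p = 0.00576). The Nr1h2 call did not hold when P1 replicate 3 was left out (adjusted p = 0.101), when any one P14 library was (0.0913 for replicate 1, 0.107 for replicate 2 and 0.0932 for replicate 3), or with library totals alone (0.0705). Macrophages are known to express Nr1h3. Of 12 macrophage markers 10 rose and 0 fell, against 21.8% and 22.0% of all genes. These markers summed to 90.8–107 CPM at P1 and 336–392 CPM at P14. Their part in the Nr1h3 result was not tested.

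The REV-ERBs, haem-binding repressors of the clock, and the RORs, which activate through the same elements, are represented by Nr1d1, Nr1d2 and Rora. Rora (chr9:68653786-69388246, plus strand) rose from 6.94, 10.7 and 8.42 CPM to 17.6, 23.4 and 25.9 CPM, without overlap (2.55-fold, log2 fold change 1.35 ± 0.25, adjusted p = 0.000621). Nr1d2 (chr14:18204054-18239127, minus strand) was at 13.4, 21.4 and 13.0 CPM at P1 and 24.8, 39.0 and 29.6 CPM at P14, again without overlap. It was 1.94-fold higher (log2 fold change 0.95 ± 0.25, adjusted p = 0.00762; not called without P14 replicate 2, adjusted p = 0.0572, or with library totals alone, 0.163). Nr1d1 (chr11:98767932-98775333, minus strand) had the same mean at both ages, 39.1 ± 13.5 CPM at P1 and 39.0 ± 1.97 at P14 (SD, n = 3, adjusted p = 0.997), with P1 replicate 2 at 23.6 and the other P1 libraries at 47.8 and 46.0. The ratio of Nr1d1 to Nr1d2 overlapped between ages (exact permutation p = 0.3). The hour at which hearts were taken is not in the labels used here, so the clock phase of the ages cannot be compared.

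Vdr, the vitamin D receptor gene (chr15:97854425-97910630, minus strand), fell. It had 38, 35 and 14 counts at P1 (1.76, 2.04 and 2.36 CPM) and 2, 2 and 6 counts at P14 (0.141, 0.266 and 0.773 CPM). No P14 library reached a P1 value, and the fitted decrease was 5.56-fold (log2 fold change -2.48 ± 0.55, adjusted p = 0.00231), or -3.36 on the log2 scale without P14 replicate 3. The P14 level rests on those few counts. At P14 it had the lowest level per kilobase of the receptor genes (rank 31). Nr6a1 (chr2:38723370-38927688, minus strand), an orphan receptor of germ cells and the early embryo, was the other gene that fell, from 3.24, 3.09 and 2.02 CPM to 1.62, 0.797 and 1.29 CPM without overlap (2.24-fold, log2 fold change -1.16 ± 0.38, adjusted p = 0.0244). Nr6a1 did not pass when P1 replicate 1 (adjusted p = 0.0777), P14 replicate 2 (0.104) or P14 replicate 3 (0.0655) was left out.

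The ERRs bind DNA without a known natural ligand and act on mitochondrial genes. Esrra (chr19:6910977-6921813, minus strand) was at 40.9, 10.3 and 34.9 CPM at P1 and 66.6, 84.2 and 99.4 CPM at P14, without overlap. The increase was 2.92-fold (log2 fold change 1.54 ± 0.46, adjusted p = 0.0266), and 1.13 on the log2 scale without P1 replicate 2 (adjusted p = 0.000185). Esrra was not called with the replicate block (1.72, adjusted p = 0.056), with the GC and length correction (1.68, 0.0705), without P14 replicate 2 (0.0701) or without P14 replicate 3 (0.083). Esrrb was at 9.9, 8.16 and 9.6 CPM at P1 and 14.8, 11.6 and 11.7 CPM at P14; its ages did not overlap, but the log2 difference of 0.47 ± 0.23 did not pass (adjusted p = 0.12). Esrrg, whose first start site with the MEF2 motif is shown above, was at 14.4, 20.8 and 16.8 CPM at P1 and 15.7, 19.4 and 19.7 CPM at P14, with full overlap (0.07 ± 0.23, adjusted p = 0.831).

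Esrra held the largest mean share of the ERR transcripts per kilobase at both ages, 63.6% ± 19.1 at P1 and 83.8% ± 2.74 at P14 (SD, n = 3). The Esrrg share was 22.6% ± 14.4 and 8.57% ± 0.579. P1 replicate 2 set the spread at P1, with Esrra at 41.7% and Esrrg at 39.2% in that library. Without division by length the mean Esrra share was 48.6% at P1 and 72.6% at P14, and the Esrrg share 34.2% and 16.0%. The log2 ratio of Esrrg to Esrra was -1.5, 1.02 and -1.05 at P1 and -2.09, -2.12 and -2.34 at P14 (difference -1.67 ± 0.78, exact permutation p = 0.1). All P14 values lay below all P1 values. Without P1 replicate 2, the highest, the difference was -0.90.

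COUP-TFs are orphan repressors; Nr2f2 is known for its part in atrial and venous identity. Nr2f1 (chr13:78188973-78199757, minus strand) rose from 0.694, 0.875 and 0.842 CPM to 3.45, 3.98 and 5.02 CPM, without overlap (5.15-fold, log2 fold change 2.36 ± 0.37, adjusted p = 0.000155; 1.76 with the GC and length correction). Nr2f6 (chr8:71374123-71381960, minus strand) was at 19.6, 11.7 and 25.1 CPM at P1 and 39.0, 49.4 and 45.1 CPM at P14, also without overlap and 2.4-fold higher (1.26 ± 0.26, adjusted p = 0.00136). Nr2f6 has the highest GC content of the 31 transcripts (67.3%). With the GC and length correction its log2 fold change was 0.39 and did not pass (adjusted p = 0.0721), and 54.37% of its exon bases overlap Ocel1 on the other strand, so its value is uncertain. Nr2f2 was at 5.6, 7.46 and 6.23 CPM at P1 and 6.33, 6.24 and 7.08 CPM at P14 (0.02 ± 0.26, adjusted p = 0.949). The log2 ratio of Nr2f1 to Nr2f2 was -3.01, -3.09 and -2.89 at P1 and -0.88, -0.65 and -0.5 at P14, a 5.01-fold shift (exact permutation p = 0.1). Atrial myocyte markers summed to 1690–2510 CPM at P1 and 774–868 CPM at P14. Of these 9 markers 5 fell and 1 rose, against 22.0% and 21.8% of all genes. Their part in the COUP-TF results was not tested.

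Of the steroid receptors, Nr3c2, the mineralocorticoid receptor gene, was at 2.54, 7.0 and 3.37 CPM at P1 and 9.57, 9.96 and 8.37 CPM at P14. The ages did not overlap, and the increase was 2.13-fold (log2 fold change 1.09 ± 0.34, adjusted p = 0.0194), or 1.71 on the log2 scale without P1 replicate 2 (adjusted p = 0.000139). It did not pass when P1 replicate 1 (0.0691), P1 replicate 3 (0.0676), P14 replicate 1 (0.057) or P14 replicate 2 (0.0633) was left out, or with library totals alone (0.131). Nr3c1, the glucocorticoid receptor gene, was at 32.9, 51.4 and 33.7 CPM at P1 and 36.8, 56.4 and 49.3 CPM at P14. Those ages overlapped through P1 replicate 2 (0.27 ± 0.23, adjusted p = 0.375); without that library Nr3c1 passed as an increase (0.51, adjusted p = 0.0415), as with the GC and length correction (0.48, 0.0114). The log2 ratio of Nr3c2 to Nr3c1 was 0.96 ± 0.31 higher at P14 without overlap (exact permutation p = 0.1), and the Nr3c2 share per kilobase was 10.2% at P1 and 17.9% at P14.

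The NR4A receptors are ligand-independent products of immediate early genes. Nr4a3 (chr4:48045153-48086447, plus strand) rose from 4.58, 2.16 and 1.01 CPM to 6.12, 7.97 and 8.5 CPM, without overlap (2.67-fold, log2 fold change 1.41 ± 0.40, adjusted p = 0.0107; 2.10 without P1 replicate 1). Nr4a1 was at 34.6, 8.98 and 9.6 CPM at P1 and 40.5, 25.5 and 40.6 CPM at P14, so P1 replicate 1 alone lay within the P14 range. Its log2 difference of 0.98 ± 0.54 did not pass (adjusted p = 0.192), but passed without P1 replicate 1 (1.94, adjusted p = 1.38e-05) and with the replicate block (1.22, adjusted p = 0.00118). With the block and the GC and length correction together it did not (0.80, adjusted p = 0.128), and it was 0.62 without P1 replicate 2. Nr4a2 was at 0.925, 1.22 and 2.53 CPM at P1 and 0.633, 0.929 and 0.515 CPM at P14 with overlap (-1.03 ± 0.51, adjusted p = 0.117). Nr4a1 made up 85.6% of NR4A counts per kilobase at P1 and 89.7% at P14.

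The testicular receptors Nr2c1 and Nr2c2, repressors that bind direct repeats, did not pass. Nr2c1 was at 7.63, 9.44 and 10.1 CPM at P1 and 7.39, 6.51 and 7.6 CPM at P14 (-0.33 ± 0.25, adjusted p = 0.308), with no overlap of ages. Nr2c2 was at 14.1, 27.3 and 21.9 CPM and 11.9, 19.5 and 20.0 CPM (-0.31 ± 0.28, adjusted p = 0.396; -0.06 without P1 replicate 2), with overlap, and 31.18% of its exon bases overlap Mrps25 or Gm44249. With library totals alone both passed as decreases (adjusted p = 0.032 and 0.0186), together with Thra (0.00788), Rara (0.0351), Rxra (0.00718) and Nr4a2 (0.0145).

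**Figure D4:**
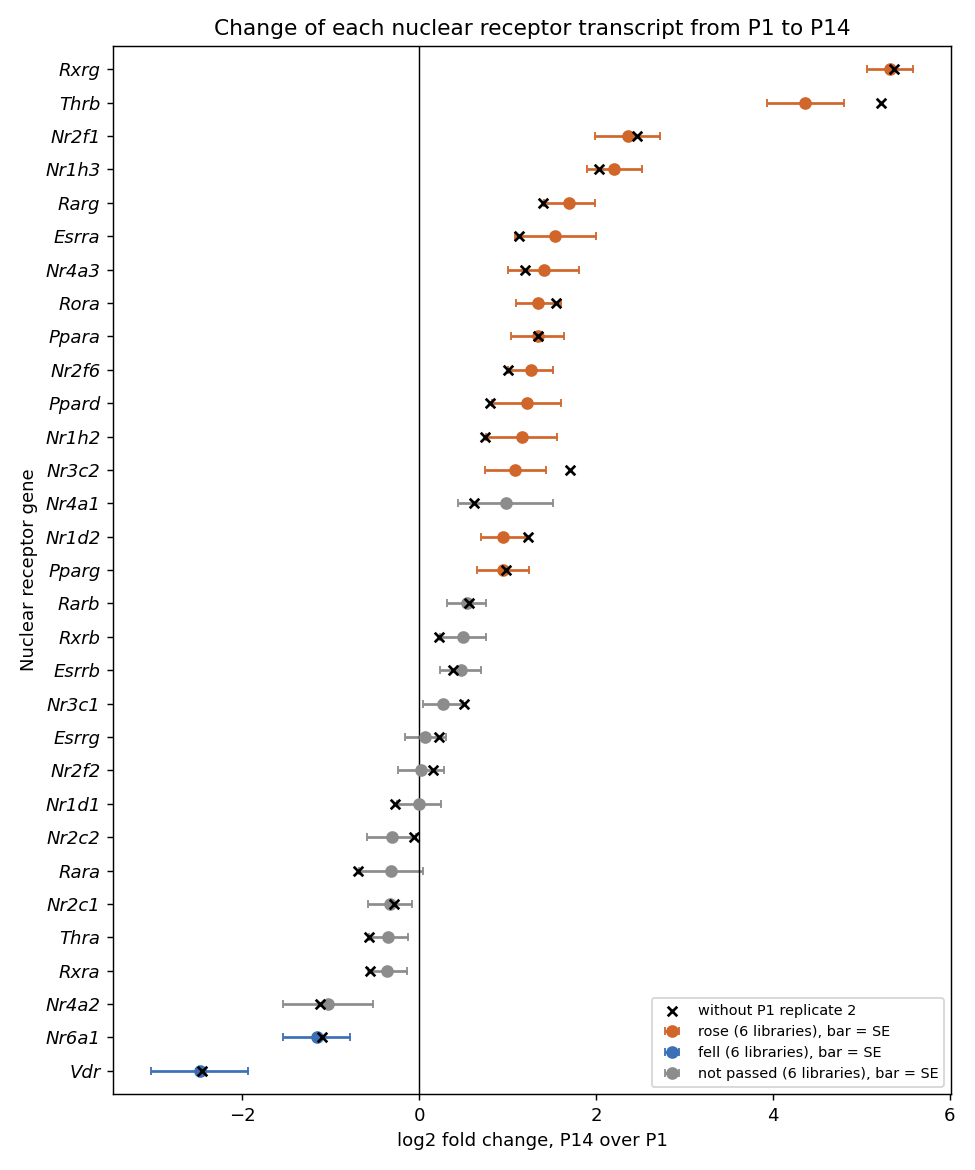
Log2 fold change (P14 over P1) of each of the 31 receptor genes with its standard error (horizontal axis); colour shows the call with all 6 libraries and a cross the value without P1 replicate 2. Rxrg (5.33) and Thrb (4.37) lie farthest to the right and Vdr (-2.48) farthest to the left, and several crosses lie outside their bars, those of Thrb (5.23) and Nr3c2 (1.71) among them.

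In the order of levels per kilobase, most neighbours could not be separated by the spread of their libraries. At P1, Nr1d1 and Rxrb (14.4 CPM per kb each), Esrra (11.5) and Rxra (10.9) followed Thra, and among these 4 neighbours overlapped. At P14 the order was Thra (48.2), Rxrg (36.9), Esrra (33.5), Rxrb (20.3), Nr2f6 (20.1) and Nr1h2 (20.0); Esrra was above Rxrb in every library, while Rxrb, Nr2f6 and Nr1h2 overlapped. Nr1d1 stood at rank 7 (14.3) and Rxra at rank 10 (8.43).

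Outside the 33 genes, Nr0b2, which encodes a receptor without a DNA-binding domain, rose from 2.29 ± 0.39 to 14.6 ± 1.55 CPM (SD, n = 3; log2 fold change 2.67 ± 0.27, adjusted p = 3.82e-06). Nr1i3 rose from 98.0 to 159 CPM (0.70 ± 0.20, adjusted p = 0.0129; 0.399 with library totals alone), but 74.85% of its exon bases overlap Tomm40l, so its value is uncertain.

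Ligand supply and cofactors were described by lists, which overlap one another and were chosen with earlier results of these data known. Each count is to be read beside the shares over all genes tested, 21.8% risen and 22.0% fallen. Of 6 tested genes of thyroid hormone transport and deiodination, 2 fell and 1 rose (5 and 0 with library totals alone, where 39.1% of all genes fell, and 4 fell with the replicate block): Slc7a5, an amino acid transporter, fell from 29.4 ± 8.61 to 4.73 ± 1.37 CPM (log2 fold change -2.61, adjusted p = 8.23e-06). Slc16a10 rose from 9.19 to 14.5 CPM (adjusted p = 0.0256), but did not pass with library totals alone (0.586) or with P1 replicate 1 (0.0749), P14 replicate 2 (0.0597) or P14 replicate 3 (0.0877) removed. Of 11 genes of retinoid handling, 3 rose and 4 fell. The retinaldehyde dehydrogenases went in opposite directions: Aldh1a1 rose from 2.91 ± 0.961 to 21.0 ± 2.37 CPM, and Aldh1a2 fell from 21.2 ± 3.24 to 7.48 ± 1.87 CPM (log2 fold change 2.82 and -1.49). Epicardial cells are a known source of Aldh1a2, and the summed epicardial markers, Aldh1a2 among them, were 50.5–66.6 CPM at P1 and 17.0–23.9 CPM at P14, with 4 of 6 lower and Msln at 0 in a library; their part was not tested. Dhrs3, a retinaldehyde reductase, rose from 18.6 to 112 CPM and Rbp7, a retinol-binding protein gene, from 34.5 to 78.6 CPM.

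Among 13 genes of steroid activation and receptor chaperones, 1 rose and 1 fell, against 21.8% and 22.0% of all genes. With library totals alone 1 rose and 4 fell, against 11.3% and 39.1% of all genes. Fkbp4, a cochaperone of steroid receptors, rose from 235 ± 40.0 to 620 ± 50.0 CPM (log2 fold change 1.40, adjusted p = 9.63e-05). Srd5a3 fell from 12.3 to 7.4 CPM, which no longer passed when P1 replicate 3 (adjusted p = 0.0759), P14 replicate 2 (0.116) or P14 replicate 3 (0.0674) was dropped.

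Of 18 coactivator genes 6 rose and 4 fell (median log2 fold change 0.3), and of 15 corepressor genes 3 rose and 2 fell (median 0.22). Among all genes tested, 21.8% rose and 22.0% fell. With library totals alone, 3 coactivators rose and 8 fell, and 2 corepressors rose and 6 fell. Under those totals, 11.3% of all genes rose and 39.1% fell. Perm1, a muscle regulator linked to the PGC-1 coactivators and present in the table under an older symbol, rose from 68.5 ± 8.51 to 239 ± 20.1 CPM, and Ppargc1b (PGC-1β) from 13.0 ± 3.37 to 41.8 ± 17.9 CPM. The acetyltransferase gene Crebbp rose from 17.8 to 43.8 CPM (adjusted p = 0.0186) with overlapping ages and was not called on leaving out P1 replicate 1 (0.0597), P1 replicate 2 (0.188), P14 replicate 2 (0.0663) or P14 replicate 3 (0.0628). Med14, a Mediator subunit, fell from 37.3 to 18.8 CPM. Of the corepressors, Hr, itself a thyroid hormone target, rose 16.1-fold from 1.46 ± 0.144 to 23.9 ± 5.79 CPM (adjusted p = 2e-07). With the GC and length correction its log2 fold change was 3.32 in place of 4.01. Tbl1x, a subunit of the NCoR complex, fell from 102 to 50.3 CPM. Rcor1 fell from 19.9 to 11.4 CPM and was not called with P1 replicate 3 (0.0502), P14 replicate 1 (0.0648) or P14 replicate 2 (0.0536) taken out.

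Known target genes of the receptors were counted in the same way, beside 21.8% risen and 22.0% fallen over all genes tested. Of 18 thyroid hormone targets 15 rose and 1 fell (median log2 fold change 1.8). Thrsp, a lipogenic regulator, rose from 1.5 ± 0.341 to 29.3 ± 4.92 CPM (log2 fold change 4.31), and Myh7, the slow myosin heavy chain gene that thyroid hormone represses, fell from 3800, 1830 and 3900 CPM to 126, 216 and 157 CPM (-4.26 ± 0.33, adjusted p = 7.69e-07). Of 26 PPAR targets 18 rose and 1 fell (median 0.85). Plin5, a lipid droplet coat protein gene, rose from 10.8 ± 1.81 to 146 ± 6.48 CPM (log2 fold change 3.76, and 3.14 with the GC and length correction), Ucp3 from 6.72 to 83.7 CPM (log2 fold change 3.62, and 4.47 without P1 replicate 2) and Ucp2 from 111 to 676 CPM, whereas Cpt1a, a carnitine palmitoyltransferase gene of the outer mitochondrial membrane, fell from 104 to 57.5 CPM (-0.85, adjusted p = 0.00407). Of 22 ERR targets, which include Esrra and Ppara themselves, 17 rose and 1 fell (median 1.3). Ckmt2, the mitochondrial creatine kinase of muscle, rose from 275 ± 13.1 to 2700 ± 198 CPM, myoglobin (Mb) from 3510 to 24100 CPM and Ndufs7 of complex I from 109 to 730 CPM. Gabpa fell from 32.2 to 19.7 CPM (adjusted p = 0.0249), a call lost on leaving out P1 replicate 2 (0.0688), P14 replicate 1 (0.0893) or P14 replicate 2 (0.0767).

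Cardiomyocyte markers rose beside these lists: 7 of 12 rose and 0 fell, against 21.8% and 22.0% of all genes. The sum of these markers was 49500–60200 CPM at P1 and 95500–112000 CPM at P14. Their part in the counts was not tested.

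LXR targets were mixed, with 7 of 16 rising and 3 falling (median 0.2). The shares over all genes, for this and the next 2 lists, were 21.8% risen and 22.0% fallen. With library totals alone 5 LXR targets rose and 6 fell, against 11.3% and 39.1% of all genes. Pltp, the phospholipid transfer protein gene, rose from 7.82 ± 2.64 to 84.2 ± 9.96 CPM, while the desaturase gene Scd2 fell from 195 ± 33.7 to 26.6 ± 5.95 CPM and Arl4c from 20.1 to 10.9 CPM; Nr1h3 is itself on this list. Of 11 retinoic acid targets, Rarb included, 1 rose and 4 fell although the median was 0.11. Dhrs3 was the riser, and among those that fell were Tgm2, a transglutaminase gene (505 to 231 CPM), and the homeobox gene Meis2 (19.7 to 9.95 CPM). Of 21 glucocorticoid and mineralocorticoid targets 14 rose and 2 fell (median 1.0; 9 and 3 with library totals alone). Klf9, a transcription factor gene, rose from 21.5 ± 3.7 to 147 ± 20.9 CPM and Zbtb16 from 12.2 to 45.5 CPM, whereas Ptgds fell from 270 to 53.3 CPM and Per1 from 116 to 53.3 CPM.

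Of 16 clock genes, in a list named for REV-ERB and ROR elements, 5 rose and 3 fell (median 0.41), against 21.8% and 22.0% of all genes. Whether each gene holds such an element was not checked, so those named below are not shown to be direct targets. With library totals alone 3 rose and 5 fell, against 11.3% and 39.1% of all genes. Dbp rose from 13.2 ± 4.44 to 39.1 ± 3.48 CPM (log2 fold change 1.57, and 0.95 with the GC and length correction), Per3 from 8.7 ± 1.48 to 26.2 ± 7.24 CPM and Tef from 48.6 ± 2.62 to 124 ± 8.53 CPM, and Per1 was among those that fell. Of 12 NR4A targets, Nr4a3 included, 8 rose and 2 fell (median 1.33). Fbp2, a muscle gluconeogenic enzyme gene, was at 0.601, 7.0 and 1.85 CPM at P1 and 87.8, 73.2 and 63.9 CPM at P14 (log2 fold change 4.52, adjusted p = 0.012; 0.0632 with the replicate block). Without P1 replicate 2, which was 7.0 CPM, its log2 fold change was 6.31. Tfrc, the transferrin receptor gene, rose from 64.8 to 533 CPM, while the smooth muscle gene Cnn1 fell from 26.4 to 8.19 CPM. Erythroid markers, from cells that also express Tfrc, summed to 436–917 CPM at P1 and 2480–3270 CPM at P14, with 5 of 6 higher; their part was not tested.

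**Figure D5:**
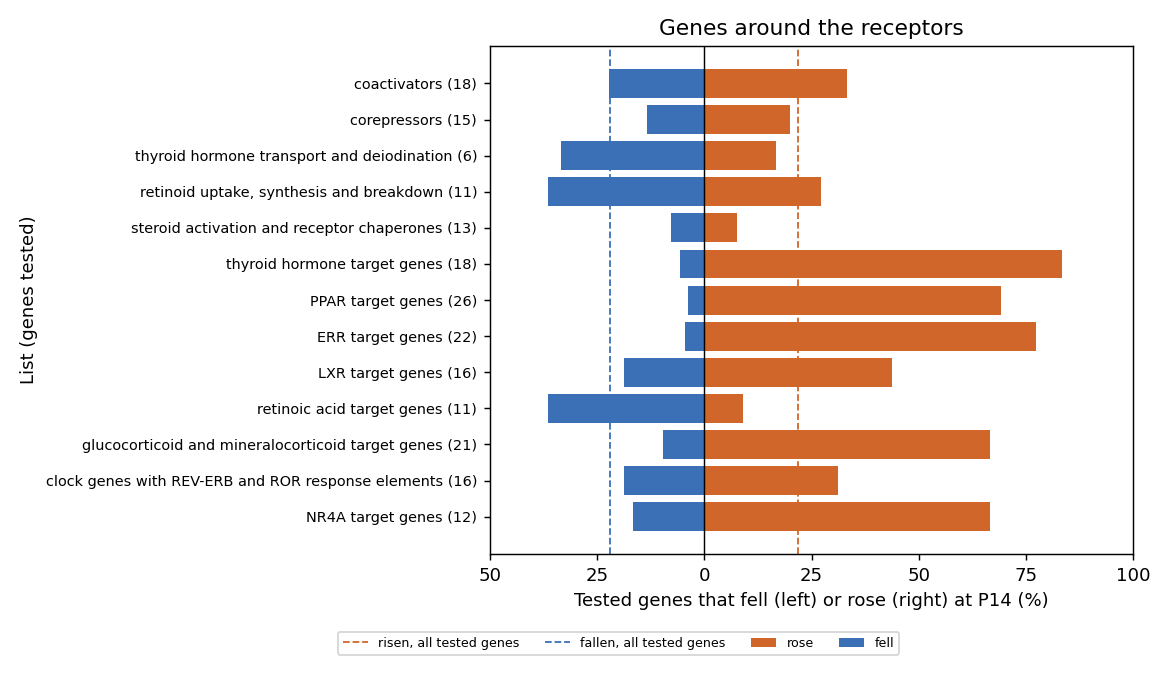
Percent of the tested genes of each cofactor, ligand or target list that rose (bars to the right) or fell (bars to the left) at P14, with dashed lines at the shares over all tested genes (21.8% risen, 22.0% fallen). Thyroid hormone (15 of 18) and ERR targets (17 of 22) have the longest bars to the right, and retinoic acid targets (4 of 11 fallen) and retinoid handling genes (4 of 11) the longest to the left.

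Markers of the remaining cell types were as follows, and their part in the receptor results was not tested. The shares over all genes were 21.8% risen and 22.0% fallen. Endothelial markers summed to 814–994 CPM at P1 and 1150–1240 CPM at P14 (6 of 12 rose), and fibroblast markers to 1840–2420 and 2030–2770 CPM (4 of 12 rose, 1 fell). Smooth muscle and pericyte markers summed to 2090–2980 and 2040–2380 CPM (6 of 11 rose, 3 fell), and lymphatic endothelial markers to 73.5–82.6 and 50.4–71.2 CPM (0 of 5 passed). Granulocyte markers went from 43.7–56.6 to 5.92–8.02 CPM (4 of 4 fell, with Ltf at 0 in a library), lymphocyte markers from 2.19–2.86 to 6.05–8.63 CPM (2 of 2 rose), and Schwann cell and neuron markers from 6.57–8.19 to 37.5–45.3 CPM (2 of 4 rose). None of the 12 cardiomyocyte markers was at 0 in any library, but that list is not limited to ventricular genes.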

How the data were processed

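Per the labels' protocols, poly(A) RNA from pools of 3 hearts was sequenced for 36 cycles; the authors deposited a table of raw read counts per gene (6 libraries, 14495 genes, each with at least 60 counts in all). Per the submitters' processing notes, GRCm38 (mm10), bedtools and edgeR 3.2.4 were used; aligner, annotation and strand setting were not given in the sources used here. Genes were filtered with filterByExpr (minimum count 10; 14301 kept, 194 removed), scaled by TMM and tested with edgeR 4.0.16 (robust quasi-likelihood F-test, two-sided, age as the only term, R 4.3.3), and adjusted by Benjamini-Hochberg over all genes, called below 0.05. The biological coefficient of variation was 23%. The statistics were tested on simulated data for this comparison: of 14301 genes, 99 of 100 with a 4-fold and 48 of 100 with a 2-fold change were recovered. The simulation used a common dispersion for all genes and no GC difference between libraries. Only genes with a mean above 5 CPM were changed, so these rates do not cover Vdr, Nr6a1, Nr2f1 or Nr4a2. CPM are TMM-scaled. Lengths, GC content (98.8% of genes) and overlaps came from GENCODE M21, and start-site windows from the RefSeq table of GRCm38.p6.

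Deviations of same-numbered libraries of the 2 ages correlated at 0.295, 0.112 and 0.102. All other pairings ran from -0.214 to 0.09, close to the lowest of these. The labels give no pairing, and these values do not establish one. The replicate number was therefore a block in an alternative only, and the main test and the ratio tests were unpaired. Alternatives were DESeq2 1.42.0 (size factors, and its test), library totals alone, no filter, a filter at 5 CPM in 3 libraries, the replicate block, a correction of each library for GC content and length (spline), the block with that correction, and leaving out each library. All 31 receptors are named; of each list the 3 called genes with the largest log2 fold change among those with a mean of at least 10 CPM are named, with 1 more against the list's main direction; some of these genes are not reported here. The receptors and lists were chosen with earlier results of these data known. P-values measure spread between pools only.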

Additional observations from a re-analysis of the deposited data

How the results depend on the processing

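Of the 15 risen receptor genes, 8 (Thrb, Rarg, Ppara, Rora, Nr1h3, Rxrg, Nr2f1 and Nr4a3) were called in every alternative in which they were tested, and of the 2 fallen, Vdr. The count of risen genes was 15 with DESeq2's size factors, its test and no filter, 16 with the replicate block and 10 (without P14 replicate 2) to 17 (without P1 replicate 2) over the libraries left out (16.5% to 23.9% of all genes). The count of fallen genes was 2 with the replicate block, 8 with library totals alone (39.1% of all genes), 0 with the stricter filter (23.3%; which left out Vdr, Nr6a1, Nr2f1 and Nr4a2), 5 with the GC and length correction (25.6%), 5 with the replicate block and that correction together (26.5%), and 1 (for P1 replicate 1, P14 replicate 2 and P14 replicate 3) to 5 (for P1 replicate 2) over the libraries left out (15.7% to 23.3%). With the replicate block, Rxrb and Nr4a1 were gained and Esrra and Fbp2 lost among the genes named, and 24.9% of all genes rose and 24.0% fell. The block changed no other call of a receptor gene. Some directions turned. Nr1d1 was 0.0 with no filter, 0.06 with the replicate block and -0.27 to 0.18 over the libraries left out. Rxrb was -0.07 with the GC and length correction and -0.06 with the block added. With library totals alone Nr2f2 was -0.45, Esrrg -0.41 and Nr3c1 -0.22; over the libraries left out Nr2f2 ran from -0.08 to 0.16 and Esrrg from -0.06 to 0.23. Over the same libraries the ratio of Ppara to Ppard ran from -0.55 to 0.45, Pparg to Ppard from -1.0 to 0.09 and Nr2c1 to Nr2c2 from -0.31 to 0.14. The cause was not tested.

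Counts in lists that moved by more than 1.5 times are grouped by setting. With library totals alone, where 11.3% of all genes rose and 39.1% fell, coactivators went from 6 to 3 risen and 4 to 8 fallen, corepressors from 2 to 6 fallen, thyroid hormone transport from 1 to 0 risen and 2 to 5 fallen, steroid and chaperone genes from 1 to 4 fallen, thyroid hormone, PPAR and ERR targets each from 1 to 2 fallen, LXR targets from 3 to 6 fallen, steroid receptor targets from 14 to 9 risen, and clock genes from 5 to 3 risen and 3 to 5 fallen. With the GC and length correction, alone or with the block, thyroid hormone targets had 2 fallen and retinoic acid targets 3 risen; clock genes had 8 risen with the correction alone. With the block, thyroid hormone transport had 4 fallen. On leaving out single libraries, P1 replicate 1 gave 0 risen in thyroid hormone transport; P1 replicate 2 gave 3 risen retinoic acid targets, 2 fallen steroid and chaperone genes and 0 fallen ERR targets; and P1 replicate 3 gave 2 fallen coactivators, 1 fallen corepressor and 0 fallen steroid and chaperone genes. P14 replicate 1 gave 2 fallen coactivators and 0 fallen ERR targets. P14 replicate 2 gave 3 risen coactivators, 3 risen clock genes, 1 fallen corepressor, 2 fallen retinoic acid targets, and 0 for thyroid hormone transport risen, steroid and chaperone genes fallen and ERR targets fallen. P14 replicate 3 gave 3 risen and 2 fallen coactivators, 3 risen clock genes, and 0 for thyroid hormone transport risen and steroid and chaperone genes fallen. Depth limits Vdr, Thrb, Rxrg, Nr2f1, Nr4a2, Nr4a3 and Nr6a1, each with at least 1 library of under 10 counts.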
